A study of Rattus norvegicus with 8 samples.

Results

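The 10 genes described here belong to 1 arm of innate immunity, the sensing of microbial and danger signals inside the cell. Nod1, Nod2, Nlrp3 and Nlrc4 encode receptors of the NOD-like (NLR) family, Card9 and Pycard encode adaptors, Casp1 and Casp4 encode inflammatory caspases, and Il1b and Il18 encode cytokines. They were taken by symbol from the 17446 genes counted in rat whole blood, and all 10 were found. The rule used no measured value, but the members were chosen with earlier results of these data known.

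NOD1 and NOD2 bind fragments of bacterial peptidoglycan and signal through the kinase RIPK2 to NF-kB, and CARD9 passes signals from C-type lectin receptors and the kinase SYK to the same factor through BCL10 and MALT1. NLRP3 and NLRC4 assemble inflammasomes, in which the adaptor PYCARD (also called ASC) helps to bring caspase-1 together, and active caspase-1 cuts the precursors of the cytokines encoded by Il1b and Il18 into their secreted forms. The product of Casp4 responds to bacterial lipopolysaccharide in the cytosol, and in blood this machinery is known mainly from monocytes and neutrophils.

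The libraries came from male wild-type Wistar rats aged 12 to 14 weeks at the start, with 2 libraries in each of 4 groups. In the AngII model, angiotensin II was infused at 0.4 mg/kg/day from an osmotic minipump. Its blood samples date from week 1 (before CMG) and week 5, the end of 4 weeks of Chios mastic gum (CMG, the resin of a Greek mastic tree) at 220 mg/kg daily by gavage. In the DOCA–HS model, deoxycorticosterone acetate was injected at 100 mg/kg weekly and 0.9% NaCl with 1% KCl was given as drinking water, and blood was sampled at week 3 and again at week 7, when CMG had been given for 4 weeks in the same way. The minipump model used is rated for 4 weeks, and no library of rats without CMG was analysed here, so that 4 further weeks of the model are part of every change described. The sources used here do not say which rat each library came from, and p-values therefore measure only the spread between these libraries.

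Levels are normalised CPM, a gene's counts relative to the size of the library, scaled by the trimmed mean of M-values (TMM) over all 8 libraries, and they compare 1 gene between libraries, not 1 gene with another, since gene lengths were not applied. Total counts ran from 4149104 to 13205565 per library, of which hemoglobin transcripts took 61.9% to 84.3%. The library labelled DOCA–HS after CMG, replicate 2, stood apart: it had the highest hemoglobin share, 651764 counts outside hemoglobin against 2195735 to 4490083 elsewhere, and 2686 genes with at least 10 counts against 6097 to 8280. The 10 genes together held 122 counts in it and 569 to 1427 in the other 7 libraries, and 1 count there equalled 0.703 CPM. Results of the 10 genes in the DOCA–HS model are therefore given with and without it, and those of related genes named below with it only. Error bars and limits from counts cover counting error only.

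In the AngII model, the receptors and Card9 were higher after CMG administration, while Pycard, Casp1 and Il1b were not distinguishable from before. Nod1, Nod2 and Card9 passed the criterion used in the study's methods, a log2 fold change beyond 1.5 with p no larger than 0.05, where p is the unadjusted value of edgeR's quasi-likelihood test. The background was 0.903% of all 7201 genes tested that passed in this direction, against 3 of the 8 members tested. Casp4 and Il18 had too few counts in this model to be tested. The counts of the 3 were low as well, 5 or 6 each in AngII before replicate 2, so that a minimum of 10 counts in every library leaves none of them to test. The median log2 fold change of the 8 was 1.21, beside -0.01 over all genes tested. No gene had an adjusted p-value under 0.05 in this model by edgeR's quasi-likelihood test (479 genes had p of 0.05 or less, and DESeq2 gave 3 genes with an adjusted p-value under 0.05, none of them a member). With no filter on low counts, 51 genes had one by edgeR, Nod1 among them (adjusted p-value 0.00442). The log2 fold change of Nod1 was then 1.88 (SE 0.42), beside 1.90 (SE 0.45) with the filter. That p-value treats the spread between libraries as known, so it is no stronger evidence.

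Nod1 was at 1.89 and 0.845 CPM before CMG and at 6.72 and 4.44 CPM after it. Both libraries after CMG were above both before it, and the mean went from 1.37 ± 0.737 to 5.58 ± 1.61 CPM (SD, n = 2). This was the largest log2 fold change of the members, 1.90 (SE 0.45), with an unadjusted p-value of 0.00293, and with any 1 library left out it was 1.51 to 2.70 and still passed. In DOCA–HS blood the same receptor was at 2.99 and 3.19 CPM before CMG and at 6.92 and 1.41 CPM after it. The 2 libraries after CMG thus lay on either side of those before it, and the log2 fold change was 0.74 (SE 0.57, unadjusted p-value 0.233).

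Nod2, the receptor for muramyl dipeptide, was at 1.57 and 0.845 CPM before and at 3.68 and 3.92 CPM after CMG in the AngII model. The groups did not overlap, and the log2 fold change was 1.57 (SE 0.42, unadjusted p-value 0.00558). Without AngII before replicate 2 it was 1.24 (SE 0.49, unadjusted p-value 0.0241) and under the size limit. In DOCA–HS blood it was at 1.05 and 2.55 CPM before, and at 4.54 CPM and 0 counts after. The 0 rests on a shallow library, and its exact 95% Poisson interval reaches 2.59 CPM, above both libraries before CMG. The log2 fold change was 0.95 (SE 0.79, unadjusted p-value 0.26).

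Card9 was at 1.02 and 1.01 CPM before and at 2.08 and 3.77 CPM after CMG in the AngII model. The groups were apart, with a log2 fold change of 1.57 (SE 0.47, unadjusted p-value 0.0102). The counts behind this were low, 13 and 6 before and 13 and 51 after CMG. Without AngII after CMG replicate 2, which held 51 of them, the log2 fold change was 1.03 (SE 0.76, unadjusted p-value 0.192) and the criterion was no longer passed. Card9 in the DOCA–HS model was at 1.55 and 2.55 CPM before and at 2.998 and 1.41 CPM after CMG, with a log2 fold change of 0.38 (SE 0.55, unadjusted p-value 0.51).

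Nlrp3, the receptor of the best known inflammasome, was at 4.01 and 7.43 CPM before and at 11.8 and 12.8 CPM after CMG in the AngII model. The log2 fold change was 1.17 (SE 0.35, unadjusted p-value 0.0107), under the size limit of the criterion, which it passed at 1.59 (SE 0.47, unadjusted p-value 0.0045) without AngII before replicate 2. Without AngII before replicate 1 it was 0.74 (SE 0.46, unadjusted p-value 0.132). Nlrc4, which works with NAIP proteins that recognise bacterial flagellin and secretion systems, was at 1.41 and 1.18 CPM before and at 3.68 and 2.74 CPM after CMG. Its log2 fold change was 1.26 (SE 0.41, unadjusted p-value 0.0156). With Nod1, Nod2 and Card9 these made 5 of the 8 members tested whose libraries after CMG were both above those before it, beside 21.3% of all genes tested. The same 5 had p of 0.05 or less, beside 5.04% of genes that did so in this direction, and each had an adjusted p-value of 0.628 (edgeR's quasi-likelihood test, Benjamini-Hochberg adjustment). Neither receptor separated the groups in the DOCA–HS model: Nlrp3 was at 5.32 and 12.3 CPM before and 12.7 and 3.52 CPM after, and Nlrc4 at 1.496 and 2.97 before and 3.998 and 0.703 after.

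**Figure D1:**
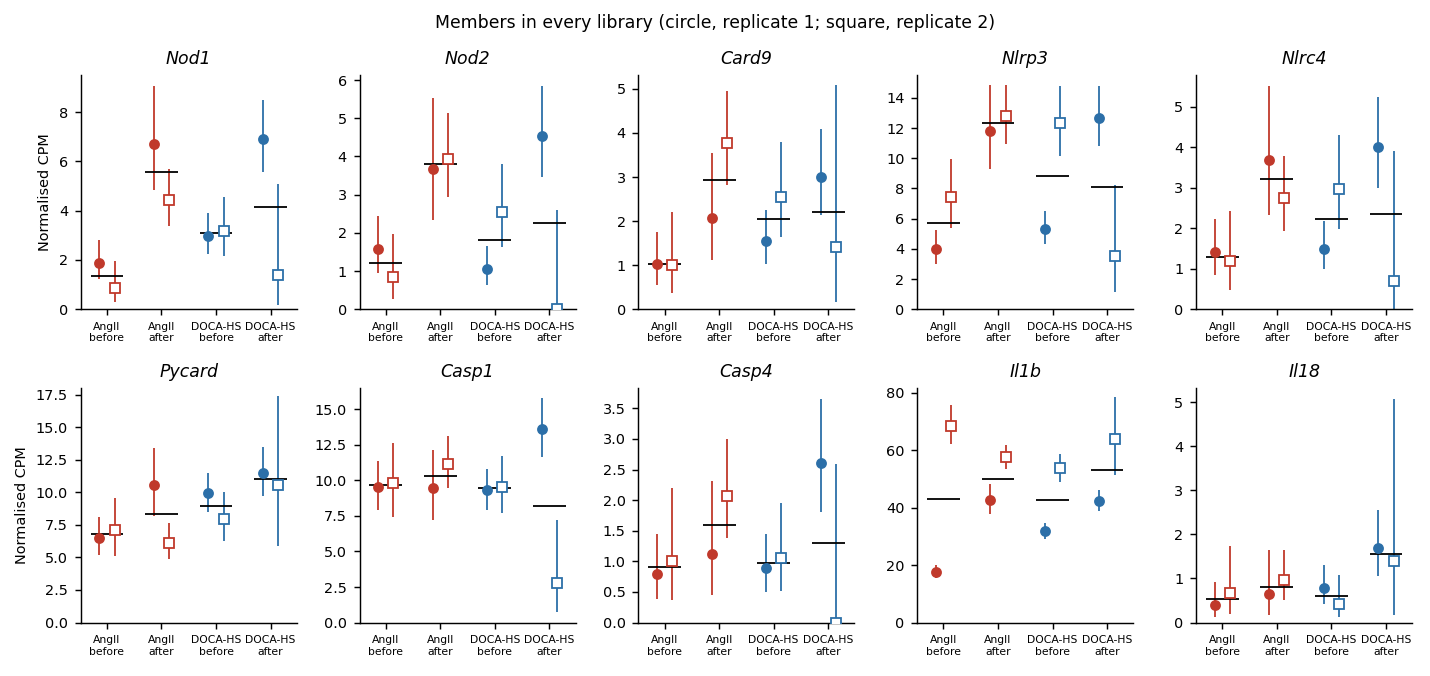
Normalised CPM (linear axes from 0) of each member in each of the 8 libraries, by model and by before or after CMG; points are libraries (filled circle, replicate 1, open square, replicate 2), bars are exact 95% Poisson intervals of the counts, and black lines are group means. In the AngII model Nod1, Nod2, Card9, Nlrp3, Nlrc4 and the untested Casp4 are higher in both libraries after CMG. DOCA–HS after replicate 2 lies low with wide intervals for most members.

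Of the receptors and Card9, the sequence around the annotated start was at hand for Nod1, Card9 and Nlrp3, and these are shown as the members that were higher together. Each runs 5′ to 3′ along the gene, from 250 bases before to 50 bases after the start, in RefSeq's GRCr8 annotation, while the counts were made on rn6. Il1b is given beside them as a member of the same pathway whose groups overlapped in the AngII model.
Nod1 (chr4:85441625-85441924, minus strand): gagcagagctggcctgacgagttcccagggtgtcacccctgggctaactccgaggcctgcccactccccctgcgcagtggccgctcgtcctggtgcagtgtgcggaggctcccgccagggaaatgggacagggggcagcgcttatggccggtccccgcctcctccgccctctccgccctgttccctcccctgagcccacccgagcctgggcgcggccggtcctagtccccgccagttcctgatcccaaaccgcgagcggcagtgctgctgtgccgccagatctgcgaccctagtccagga
Card9 (chr3:29578353-29578652, minus strand): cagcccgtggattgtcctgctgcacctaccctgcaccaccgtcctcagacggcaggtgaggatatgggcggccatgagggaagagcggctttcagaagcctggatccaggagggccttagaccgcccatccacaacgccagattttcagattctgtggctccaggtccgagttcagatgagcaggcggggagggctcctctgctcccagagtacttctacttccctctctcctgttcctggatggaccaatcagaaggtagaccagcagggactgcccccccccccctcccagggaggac
Nlrp3 (chr10:44827848-44828147, plus strand): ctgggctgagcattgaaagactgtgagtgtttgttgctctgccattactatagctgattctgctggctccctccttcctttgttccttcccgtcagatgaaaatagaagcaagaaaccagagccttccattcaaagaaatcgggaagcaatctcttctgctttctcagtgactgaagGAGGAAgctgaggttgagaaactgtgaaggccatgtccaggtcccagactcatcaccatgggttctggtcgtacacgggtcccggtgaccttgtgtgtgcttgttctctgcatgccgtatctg
Il1b (chr3:137036532-137036831, minus strand): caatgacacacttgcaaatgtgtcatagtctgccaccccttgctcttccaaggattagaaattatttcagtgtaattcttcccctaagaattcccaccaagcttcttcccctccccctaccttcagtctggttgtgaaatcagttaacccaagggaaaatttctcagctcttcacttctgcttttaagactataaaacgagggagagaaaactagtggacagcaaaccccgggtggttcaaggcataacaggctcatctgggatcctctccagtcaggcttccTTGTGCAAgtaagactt
Capitals mark matches on either strand to 4 motifs of myeloid and inflammatory factors: GAGGAA for PU.1, GGANTTTCC for NF-kB, TGANTCA for AP-1 and TTGCNNAA for C/EBP, none of which overlapped another in these windows. The windows of Nod1 and Card9 held none of the 4, that of Nlrp3 held GAGGAA starting 73 bases before the start, and that of Il1b held the C/EBP letters on the opposite strand. Over the 33469 promoters of the same length, 27.6% held GAGGAA, 1.28% GGANTTTCC, 7.33% TGANTCA and 10.6% TTGCNNAA. Of the 7 members with such a sequence, 2 held GAGGAA (Nlrp3 and Casp1), 1 held TGANTCA (Il18), 1 held TTGCNNAA (Il1b) and 0 held GGANTTTCC. The 3 higher members thus shared no match to these letters.

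Of the members downstream of the inflammasome receptors, Pycard, Casp1 and Il1b were tested in the AngII model, and none passed. Pycard, the adaptor that joins NLRP3 to caspase-1, was at 6.52 and 7.09 CPM before and at 10.6 and 6.14 CPM after CMG, so that the groups overlapped. Its log2 fold change was 0.30 (SE 0.35, unadjusted p-value 0.416). Casp1 was at 9.51 and 9.80 CPM before and at 9.44 and 11.2 CPM after, with a log2 fold change of 0.12 (SE 0.29, unadjusted p-value 0.688). Its levels rest on 58 to 151 counts per library. Casp4, which was not tested, was at 0.786 and 1.01 CPM before and at 1.12 and 2.07 CPM after CMG, on 6 to 28 counts. Both of its libraries after CMG were thus above both before it.

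Neither cytokine gene separated the AngII groups. Il1b had the most counts of the members, 224 to 778 per AngII library, and stood at 17.6 and 68.6 CPM before and at 42.7 and 57.5 CPM after CMG. Both values after CMG lay between the 2 before it, and the log2 fold change was 0.26 (SE 0.56, unadjusted p-value 0.649). Without AngII before replicate 1 it was -0.44 and without AngII before replicate 2 it was 1.48, so its direction rested on which library stood for the group before CMG. Il18, not tested in this model, was at 0.393 and 0.676 CPM before and at 0.640 and 0.961 CPM after, on 4 to 13 counts, and its groups overlapped.

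No member passed the criterion in the DOCA–HS model, beside 2.05% of the 7720 genes tested in either direction. All 10 members were tested, 9 had a log2 fold change above 0, and the median was 0.46 beside -0.04 over all genes tested. Scaled to total counts, the median was -0.13 beside -0.76 over all genes. No member had p of 0.05 or less, and all had an adjusted p-value of 0.997 by edgeR's quasi-likelihood test. No gene had one under 0.05, with 245 genes at p of 0.05 or less. The highest value was that of Il18, at 0.776 and 0.425 CPM before and at 1.69 and 1.41 CPM after CMG, with a log2 fold change of 1.35 (SE 0.69, unadjusted p-value 0.0827). Only 2 counts stood behind the last of these levels.

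Il18 and Pycard were the 2 members whose groups did not overlap in the DOCA–HS model, beside 35.8% of the genes tested that did not overlap in one direction or the other. Pycard was at 9.92 and 7.97 CPM before and at 11.5 and 10.5 CPM after CMG, a log2 fold change of 0.31 (SE 0.43, unadjusted p-value 0.496). Casp4 was at 0.886 and 1.06 CPM before and at 2.61 CPM and 0 counts after CMG, where the interval of the 0 again reaches 2.59 CPM. Its log2 fold change was 1.06 (SE 0.76, unadjusted p-value 0.195). Casp1 was at 9.31 and 9.56 CPM before and at 13.6 and 2.81 CPM after CMG, on either side of the levels before it, and its log2 fold change was -0.02 (SE 0.61, unadjusted p-value 0.978). Il1b was at 31.8 and 53.6 CPM before and at 42.4 and 64.0 CPM after CMG, with a log2 fold change of 0.31 (SE 0.51, unadjusted p-value 0.558).

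These DOCA–HS values turned on single libraries. Without DOCA–HS before replicate 1 the median was 0.078, 5 of 10 members were above 0, and Card9, Il1b, Nlrc4 and Nlrp3 changed sign. Replicate 1 after CMG was above DOCA–HS before replicate 1 for 10 of 10 members and above before replicate 2 for 9 of 10, whereas replicate 2 after CMG, the shallow library, was above each of them for 3 of 10. Without the shallow library, all 10 members had a log2 fold change above 0, with a median of 0.77, and 5 had p of 0.05 or less, beside 6.48% of all genes that were higher with such a p. Nod2 was then at 1.44 (SE 0.43, unadjusted p-value 0.00068, adjusted p-value 0.048 by edgeR's quasi-likelihood test), as 1 of 119 genes with an adjusted p-value under 0.05. Casp4 was at 1.45 (SE 0.54, unadjusted p-value 0.00719), Nod1 at 1.18 (SE 0.35, unadjusted p-value 0.000837), Il18 at 1.41 (SE 0.66, unadjusted p-value 0.032) and Nlrc4 at 0.92 (SE 0.42, unadjusted p-value 0.0277). Without replicate 1 after CMG in its place, the median was -1.20, 3 members were above 0, and Casp1 passed the criterion in the opposite direction at -1.74 (SE 0.57, unadjusted p-value 0.00887), beside 13.6% of all genes that passed in that direction and a median of -0.37 over all genes. Each of these fits leaves a group with 1 library, which is assumed to vary like the others.

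**Figure D2:**
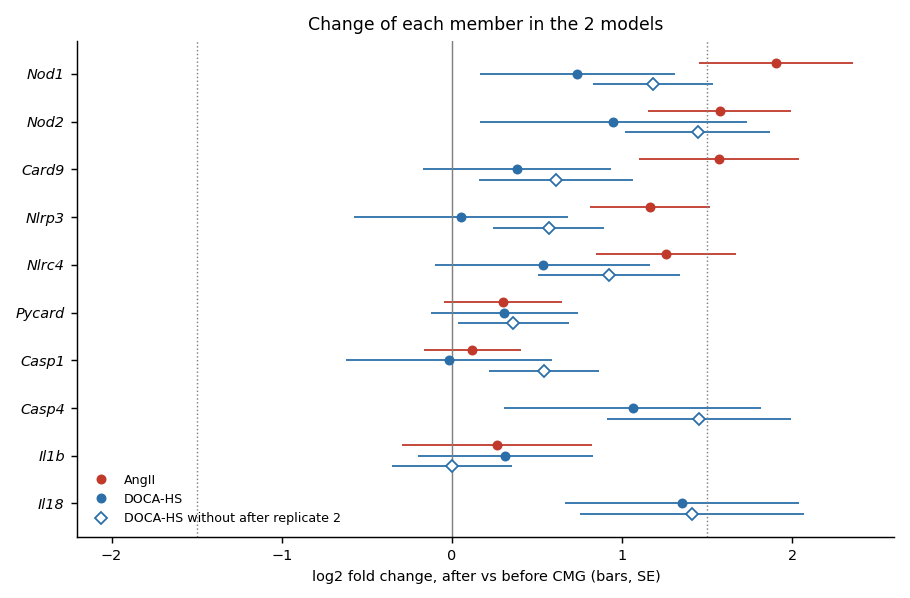
Log2 fold change after against before CMG for each member (points, edgeR fits; bars, SE) in the AngII model (red), the DOCA–HS model (blue, filled) and the DOCA–HS model without after replicate 2 (blue, open); dotted lines mark 1.5 in either direction. Nod1, Nod2 and Card9 lie beyond 1.5 in the AngII model only, Nod2 moves from 0.95 to 1.44 in the DOCA–HS model once the shallow library is left out, and Casp4 and Il18 have no AngII value.

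The difference between the models was tested in 1 fit of all 8 libraries, as the change in the DOCA–HS model minus that in the AngII model. No member passed the criterion, beside 3.16% of the 7994 genes tested, and adjusted p-values ran from 0.881 to 0.999 (edgeR's quasi-likelihood test). The lowest values were those of Card9 at -1.18 (SE 0.74, unadjusted p-value 0.139), Nod1 at -1.14 (SE 0.77, unadjusted p-value 0.171) and Nlrp3 at -1.06 (SE 0.80, unadjusted p-value 0.213). Il18 had the highest at 0.63 (SE 0.96, unadjusted p-value 0.526). The median of the members was -0.35, beside -0.12 over all genes. So the passing of Nod1, Nod2 and Card9 in the AngII model alone was not shown to be a difference between the models. Without the shallow library the median was -0.19 and 0 members passed, and without DOCA–HS after replicate 1 it was -2.26 and 6 members passed (Nod1, Nod2, Nlrp3, Nlrc4, Casp1 and Casp4, each lower in the DOCA–HS model). In that last fit 14.4% of all genes passed in this direction, and the median of all genes was -0.50.

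Levels in the 2 models were also set against each other at the same stage, where model and week of sampling cannot be told apart. Before CMG no member passed the criterion, beside 0.838% of genes, and the median was 0.41 higher in the DOCA–HS model beside 0.06 over all genes. Nod1 was at 2.99 and 3.19 CPM in DOCA–HS against 1.89 and 0.845 CPM in AngII blood, a log2 difference of 1.07 (SE 0.57, unadjusted p-value 0.0872), and Card9 differed by 0.96 (SE 0.53, unadjusted p-value 0.0986). Nlrc4 and Pycard, like these, were higher in both DOCA–HS libraries than in both AngII libraries before CMG, which held for 24.3% of all genes. After CMG no member passed either, beside 1.4% of genes, and the median was -0.04. Thus the order of the groups for Nod1 was AngII before CMG lowest, then DOCA–HS before CMG, with the means after CMG at 4.16 ± 3.90 CPM (DOCA–HS) and 5.58 ± 1.61 CPM (AngII; SD, n = 2) within each other's spread. For Card9 the AngII group before CMG was also lowest, at 1.02 ± 0.00587 CPM, and the other 3 group means, 2.05 to 2.93 CPM, overlapped.

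Marker sums of monocytes and of NK and cytotoxic lymphocytes were also higher after CMG in the AngII model. Those of neutrophils and T cells were lower. Of 12 monocyte markers, 10 were tested and 5 were higher with p of 0.05 or less, beside 5.04% of all genes tested. Of these markers 9 were above 0, and their median log2 fold change was 0.96. Their summed level was 447 and 424 CPM before and 562 and 561 CPM after CMG, and it was carried mostly by Lyz2 (355 and 373 CPM before, 404 and 434 CPM after), a lysozyme gene that neutrophils also express. The defining monocyte receptor gene Csf1r was at 41.4 and 18.1 CPM before and at 82.5 and 53.8 CPM after CMG, while Cd163 had 0 counts in every library and Ms4a7 at most 3. Ctss, 1 of the 12, is also in the list of other inflammasome genes. The summed level of 12 neutrophil markers was 288 and 268 CPM before and 264 and 249 CPM after CMG. S100a9 held the largest part of it (136 and 128 CPM before, 114 and 103 CPM after). These markers did not move together: 5 of the 12 had a log2 fold change above 0, and the median was -0.22. Csf3r, 1 of the 5, was at 29.7 and 38.9 CPM before and at 53.9 and 46.1 CPM after CMG. Markers of NK and cytotoxic lymphocytes summed to 45.4 and 44.4 CPM before and 84.6 and 75.9 CPM after CMG, T cell markers to 249 and 270 CPM before and 180 and 221 CPM after. B cell, erythroid and platelet sums overlapped between the AngII groups, and the erythroid and platelet sums were highest of all in the shallow DOCA–HS library (52610 and 959 CPM). In bulk blood, more cells of a type and more RNA per cell cannot be told apart.

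Set against the monocyte marker sum, Nod1 went from 4.22 and 1.99 CPM per 1000 CPM of markers before CMG to 11.9 and 7.91 after it. Nod2 went from 3.52 and 1.99 to 6.54 and 6.99, and Card9 from 2.29 and 2.39 to 3.70 and 6.73. The 5 receptor and Card9 transcripts kept both libraries after CMG above both before it on this scale, Casp1 was lower after CMG (21.3 and 23.1 before, 16.8 and 19.9 after), and the median over the 10 members was 0.59 (log2 ratio of the group means). Against the neutrophil sum, whose markers moved in both directions, the median was 1.08, with 6 members apart. The part of the cell makeup in these results was not tested. In the DOCA–HS model the monocyte sum was 475 and 719 CPM before and 691 and 430 CPM after CMG, with the lowest value in the shallow library, and the neutrophil sum was 162 and 473 CPM before and 226 and 510 CPM after.

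**Figure D3:**
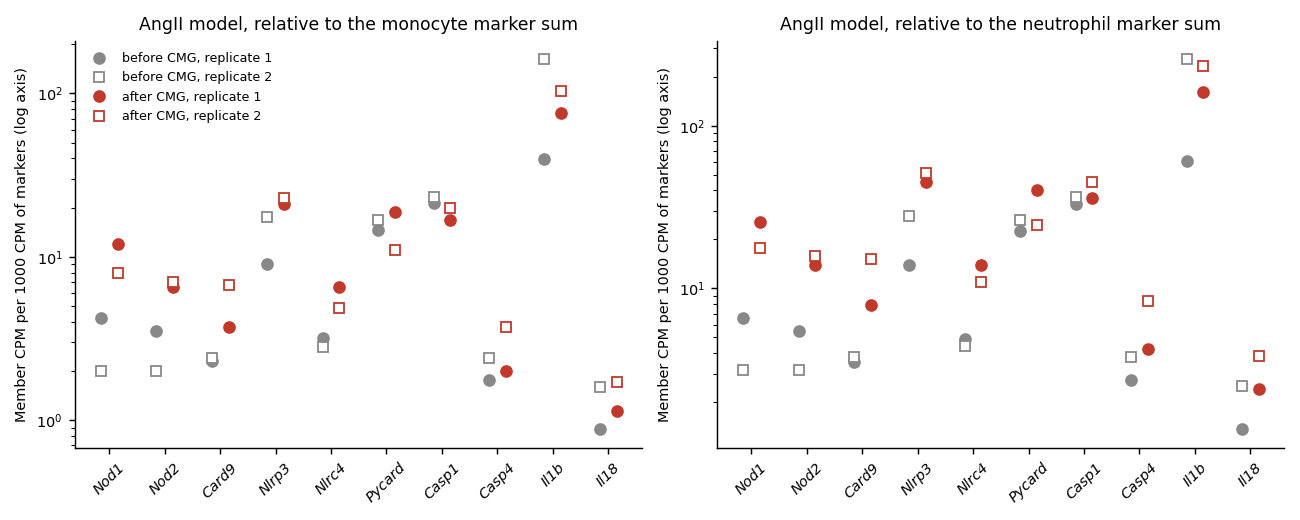
CPM of each member per 1000 CPM of the summed monocyte markers (left) and neutrophil markers (right) in the 4 AngII libraries (log axes; grey, before CMG, red, after CMG; circles, replicate 1, squares, replicate 2). The 5 members Nod1, Nod2, Card9, Nlrp3 and Nlrc4 lie higher after CMG in both panels, and Casp1 lies lower relative to monocyte markers.

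The partners through which these receptors signal mostly did not pass a test. In the AngII model 0.903% of all genes tested passed the criterion as higher, and 5.04% were higher with p of 0.05 or less. Of 37 listed partners of NOD receptors and Card9, 28 were tested there, 0 passed the criterion and 5 had such a p, all higher. The median log2 fold change of the 28 was 0.26. The first of the 5 was Slc15a4, an endolysosomal transporter that brings muramyl peptides to the cytosol, at 2.12 and 2.70 CPM before and 5.28 and 6.21 CPM after CMG (log2 fold change 1.302, SE 0.33, unadjusted p-value 0.00392). Its DOCA–HS levels were 3.10 and 3.82 CPM before and 6.69 and 6.33 CPM after CMG, also apart but without passing the test (0.93, SE 0.45, unadjusted p-value 0.0706). Birc3, a ubiquitin ligase of the NOD2 complex, was at 3.14 and 3.04 CPM before and 5.76 and 6.43 CPM after CMG in the AngII model (1.00, SE 0.30, unadjusted p-value 0.0108). Clec4e, the lectin receptor Mincle, was at 0.81 and Vav3, an exchange factor, at 0.86, and the fifth was the lectin receptor gene Clec4d at 1.06 (named after its values were seen). Ripk2, the kinase that NOD1 and NOD2 share, had a log2 fold change of 0.27 (SE 0.33, unadjusted p-value 0.437), Bcl10 one of 0.25 (SE 0.35, unadjusted p-value 0.493) and Syk one of 0.26 (SE 0.32, unadjusted p-value 0.443), so none of these central partners passed. Of the same 28 partners, 0 passed either test in DOCA–HS blood, where their median was -0.22. For the difference between the models, Birc3 alone of the 28 partners had p of 0.05 or less, beside 299 of the 7994 genes tested. Its value was -1.42 (SE 0.49, unadjusted p-value 0.0155, adjusted p-value 0.881 by edgeR's quasi-likelihood test), with 5 counts in the shallow library.

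Among 30 other inflammasome genes, 21 were tested in the AngII model. Mefv, which encodes the inflammasome sensor pyrin, passed the criterion, at 1.73 and 1.35 CPM before and at 5.12 and 4.36 CPM after CMG (log2 fold change 1.59, SE 0.36, unadjusted p-value 0.00239). Its AngII before replicate 2 held 8 counts. It did not move in this way in the DOCA–HS model, at 2.16 and 5.52 CPM before and 3.77 and 2.11 CPM after CMG, the last on 3 counts in the shallow library. The difference between the models passed the criterion too (-1.73, SE 0.73, unadjusted p-value 0.0369, adjusted p-value 0.881 by edgeR's quasi-likelihood test), beside 3.16% of all genes tested. This difference is given with the shallow library only. A further 5 of the 21 had p of 0.05 or less, all higher, where 5.04% of all genes tested were higher with such a p and 0.903% passed the criterion as higher. The further 5 were led by Casp8, the apoptotic caspase (1.37, SE 0.37, unadjusted p-value 0.00625), and the interferon-inducible GTPase Irgm (1.39, SE 0.39, unadjusted p-value 0.0078), followed by Gbp5 at 0.88, the sensor Nlrp1a at 0.76 and Nlrp12, named after its values were seen, at 0.70. Gsdmd, which encodes the pore-forming substrate of caspase-1, had a log2 fold change of 0.02 (SE 0.31, unadjusted p-value 0.94), and Nek7, the kinase that binds NLRP3, one of 0.12 (SE 0.33, unadjusted p-value 0.711). The median of the 21 was 0.12. For the DOCA–HS model only Gbp2, another guanylate-binding protein gene, had p of 0.05 or less (1.22, SE 0.50, unadjusted p-value 0.0402).

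Of 23 genes of the IL-1 and IL-18 family and its signalling, 10 were tested in the AngII model. Il1r2, the decoy receptor that binds IL-1 without signalling, was lower after CMG, at 9.75 and 9.63 CPM before and 5.44 and 3.25 CPM after (log2 fold change -1.17, SE 0.34, unadjusted p-value 0.00878). It is also 1 of the 12 neutrophil markers used here. Irak4, a kinase of the receptor complex, was higher (0.92, SE 0.38, unadjusted p-value 0.0424), and Il1rn, the receptor antagonist, had a log2 fold change of 0.40 (SE 0.31, unadjusted p-value 0.229). None (0 of 11) in the DOCA–HS model had p of 0.05 or less, and 1 of them, Il1rn, was above 0. Of 11 other NLR genes, 6 were found by symbol and 2 of these were tested, and neither passed in either model.

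**Figure D4:**
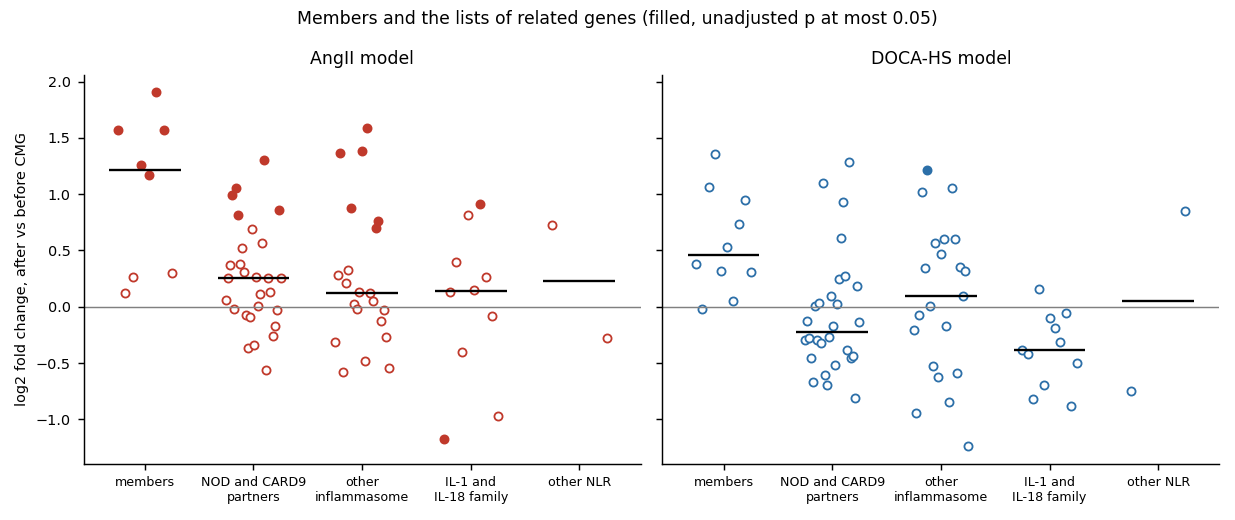
Log2 fold change after against before CMG of the members and of the 4 lists of related genes in the AngII model (left) and the DOCA–HS model (right); points are genes tested, filled where the unadjusted p-value was at most 0.05, and lines are medians. In the AngII model the median of the members, 1.21, lies above those of the lists, 0.12 to 0.26, and in the DOCA–HS model 1 gene is filled.

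The patterns of log2 CPM of the members over the 8 libraries are given as a description, since the libraries share groups, depth and cell makeup. Nod2 and Nlrc4 had a Pearson's r of 0.93 (0.94 without the shallow library), Nod1 and Nlrc4 of 0.89 (0.91) and Casp1 and Casp4 of 0.97 (0.94). Il1b had an r of -0.14 with Nod1 and -0.21 with Nod2 (-0.01 and 0.15 without the shallow library), but of 0.36 with Nlrp3 (0.73) and 0.30 with Card9 (0.42). Casp1 and Il18 had an r of -0.24 over all libraries and 0.88 without the shallow one. Among the 7392 other genes with a mean of at least 10 counts, those most like Nod1 were Ptk2b (0.99) and Arhgef2 (0.98), those most like Nod2 were Atrn (0.99) and Hbp1 (0.99), and those most like Card9 were Lrif1 (0.97) and Tmed7 (0.95). Rab32 was among the 2 most like genes of both Nlrp3 (0.96) and Nlrc4 (0.98), beside Rnpep (0.98) for Nlrp3 and Adgre5 (0.99) for Nlrc4. Gk was likewise shared by Casp1 (0.99) and Casp4 (0.98), beside Ece1 (0.99) and Lman1 (0.98). The most like genes were Cd300le (0.91) and Arhgap21 (0.90) for Pycard, Lta4h (0.96) and Eif4e3 (0.91) for Il1b, and Nat10 (0.96) and Tbck (0.95) for Il18. With 8 libraries and so many genes, values of this size are a ranking only.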

How the data were processed

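RNA from whole blood was sequenced by the authors in 8 libraries, 2 per group (AngII and DOCA–HS, before and after CMG). They aligned reads to rn6 with HISAT2, counted them per gene with HTSeq by strand and deposited the raw counts, without normalization. The methods state that hemoglobin annotations were removed, yet hemoglobin genes lead the deposited counts. The counts hold 17446 gene symbols, all 10 members among them, and 0 unused columns.

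Each model's 4 libraries made 1 fit in edgeR 4.0.16 under R 4.3.3 (filterByExpr, TMM, glmQLFit, glmQLFTest, Benjamini-Hochberg adjustment over all genes tested), without a replicate block. Differences between the models came from 1 fit of all 8 libraries. All fits ran over the whole table, and only those of each model's 4 libraries were tested on simulated data. Levels are CPM, with a prior count of 2 for log2 CPM in correlations. Counting intervals are exact Poisson intervals at 95%. Counting error did not account for the differences between replicates (chi-square over degrees of freedom 15.4 to 94.6).

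The members, gene lists and markers were chosen with earlier results of these data known, as were the motifs. Named were all members, the list genes that passed the criterion, up to 4 further per list and model ranked by unadjusted p-value within those no larger than 0.05, and the 2 genes most correlated with each member. Central partners named with values that did not pass (Ripk2, Bcl10, Syk, Gsdmd, Nek7, Il1rn) and single markers were chosen after their values were seen. Alternatives were DESeq2 1.42.0, DESeq2 size factors, scaling to total counts with and without hemoglobin, a minimum of 10 counts per library or none, 1 fit of all 8 libraries, the replicate block, the p-values alone and leaving out single libraries. Promoters are from RefSeq (GRCr8), where 7 of 10 members matched.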

Additional observations from a re-analysis of the deposited data

How the results depend on the processing

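Depth limits most members: AngII before replicate 2 held fewer than 10 counts for 6 of them, and 2 libraries per group leave 1 library to decide many directions. Except where a count or its cause is named, the cause of a change was not tested.

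In the AngII model 3 members passed the criterion in the reported fit, and 3 did with DESeq2, DESeq2 size factors, no filter and all 8 libraries in 1 fit. The genes that passed as higher were 65 of 7201 in the reported fit, 48 with DESeq2 and 62 with its size factors. They were 134 of 11196 with no filter and 76 of 7994 with all 8 libraries. Without the filter Nod1 also had an adjusted p-value under 0.05 by edgeR (0.00442, with 51 genes in all), at a log2 fold change of 1.88 (SE 0.42). That p-value treats the spread between libraries as known. In the fit of all 8 libraries 3 rather than 5 members had p of 0.05 or less. Scaling to total counts or to total counts outside hemoglobin gave 5 and 5 (Nlrp3 and Nlrc4 added), with medians of 1.58 and 1.60, but moved the median of all genes to 0.36 and 0.38. With these scalings 210 and 225 of the 7201 genes tested passed as higher. The unadjusted p-value alone gave 5 and the adjusted p-value alone 0. At least 10 counts in every library left 4 members, none of them Nod1, Nod2 or Card9, with 0 passing and a median of 0.33. With a library left out, 2 to 3 passed and the median was 0.74 to 1.18; without before replicate 2 Nod2 was lost (1.24) and Nlrp3 gained (1.59), and without after replicate 2 Card9 was lost. Ranges were -0.013 to 0.17 for Casp1, -0.44 to 1.48 for Il1b and -0.18 to 0.66 for Pycard. All members tested in the AngII model kept their direction under every alternative that used all libraries.

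With the replicate block, 2 members passed (Nod1 and Nod2), beside 82 of the 7201 genes tested that passed as higher, and Card9 was at 1.46. By edgeR's quasi-likelihood test 3 members had an adjusted p-value under 0.05 (Nod1 7.2e-05, Nlrp3 0.00733, Nod2 0.0133), as did 165 genes. The block leaves few residual degrees of freedom, and these p-values treat the spread between libraries as known. They are therefore no stronger evidence than those of the reported fit. Deviations of same-numbered libraries correlated at 0.41 (AngII) and 0.31 (DOCA–HS), over 2 pairs each, so the numbers are not known to pair rats. In the DOCA–HS model the block gave 0 members, and in the difference between the models 0, with Il1b at -0.16.

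In the DOCA–HS model, scaling to total counts moved the median of all genes to -0.76 and turned Card9 (-0.25), Il1b (-0.55), Nlrc4 (-0.019), Nlrp3 (-0.30) and Pycard (-0.46). Scaling outside hemoglobin moved it to -0.41 and turned Il1b (-0.18), Nlrp3 (-0.19) and Pycard (-0.11). Casp1 was at 0.011 with DESeq2 size factors and 0.0066 with all 8 libraries, and Il1b at -0.029 with at least 10 counts in every library. With a library left out, the median was -1.20 to 0.77. The ranges were -0.49 to 0.67 (Card9), -1.74 to 0.54 (Casp1), -6.23 to 1.45 (Casp4), -0.014 to 0.76 (Il1b), -1.58 to 0.92 (Nlrc4), -1.28 to 0.72 (Nlrp3), -1.12 to 1.18 (Nod1) and -7.04 to 1.46 (Nod2). The lowest values of Casp4 and Nod2, here and below, compare with 0 counts in the shallow library and are no bounds.

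For the difference between the models, total counts gave Casp4 -0.85, Il18 -0.45, Il1b -1.29 and Pycard -1.06, total counts outside hemoglobin gave -0.62, -0.10, -0.89 and -0.72, and no filter gave Pycard -0.0021. With a library left out, 0 to 6 members passed, the median was -2.26 to -0.085, and ranges were -1.84 to 0.43 (Casp1), -7.13 to 0.71 (Casp4), -1.21 to 0.75 (Il1b), -8.59 to 0.073 (Nod2) and -0.33 to 0.45 (Pycard).

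Between the models before CMG, the 2 total scalings gave medians of 1.18 and 1.13 (all genes 0.86 and 0.78), Casp1 0.76 and 0.68, and Il1b 0.79 and 0.71. The second let 1 member, Nod1, pass, beside 279 of the 7994 genes tested that passed as higher. No filter gave Il1b 0.0077. With a library left out, the median was 0.039 to 0.69, with -0.11 to 0.012 (Casp1), -0.079 to 0.29 (Casp4), -0.21 to 0.66 (Il18), -0.69 to 1.27 (Il1b), -0.13 to 1.16 (Nlrp3) and -0.33 to 1.01 (Nod2). After CMG the total scalings gave Il1b -0.50 and -0.18. With a library left out, the median was -1.86 to 0.34. It was lowest without DOCA–HS after replicate 1, where the median of all genes was -0.38. The ranges were -1.12 to 0.32 (Card9), -1.89 to 0.39 (Casp1), -7.02 to 0.84 (Casp4), -0.24 to 0.33 (Il1b), -2.16 to 0.35 (Nlrc4), -1.83 to 0.039 (Nlrp3), -1.97 to 0.34 (Nod1) and -8.21 to 0.25 (Nod2).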
